A study of Mus musculus with 40 samples.

Results

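Pancreas gene expression was compared among male C57BL/6J mice that shared a birth cage and parted at weaning, some onto a high-fat diet (HF) and the others onto a low-fat diet (LF). The animals were chosen by their cage label: of 12 birth cages, 5 (cages 4, 10, 11, 20 and 23) held both post-weaning diets, and they gave 23 of the 40 mice of the series, 12 on HF and 11 on LF. The other 7 cages, with 17 mice, each held a single post-weaning diet. Dams had eaten the HF diet (high in fat, low in carbohydrate) or the LF diet (low in fat, high in carbohydrate) from before mating until weaning, and coconut oil was the main fat of both diets. Groups are written with the dam diet first. The mixed cages held 7 HF_HF and 6 HF_LF mice in 3 cages of HF dams, and 5 LF_HF and 5 LF_LF mice in 2 cages of LF dams. Cage 4 contributed 2 HF and 3 LF mice, cage 11 3 HF and 2 LF, cage 10 1 HF and 2 LF, cage 20 3 HF and 1 LF, and cage 23 3 HF and 3 LF. A breeding cage held a pair of dams, so cage-mates may or may not have been littermates. All mice were killed at 9 weeks of age after a fast, and the whole pancreas of each was hybridized to 1 Illumina MouseRef-8 v2.0 beadchip.

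Because the comparison was made inside cages, the dam diet and the birth cage, which cage-mates shared, dropped out of it. Whole pancreas is mostly acinar tissue, which makes and secretes digestive enzymes, with islets of hormone cells and ducts as minor parts. Acinar cells have one of the highest rates of protein synthesis in the body. When amino acids run short or unfolded protein builds up, kinases phosphorylate the initiation factor eIF2, general translation falls, and the transcription factor ATF4 is made instead. ATF4 and its partners then switch on genes for amino acid synthesis, uptake and charging of tRNA, a program called the integrated stress response. The hormone gene Fgf21 is among its targets and is strongly expressed in the acinar pancreas.

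Signal is the fluorescence of a probe in arbitrary units, with the background left in, so folds of dim genes are compressed. Precision depends on how many arrays there were and on how widely a gene spread among mice. Median signal was 62.9 to 63 on every array, and arrays of the 23 mice correlated at 0.953 to 0.993. One array, HF_HF 5 of cage 20, stood apart, at a root mean square distance of 0.264 from the median array against at most 0.204 for the other 22. The trypsinogen gene Prss2 had 24448.6 to 31926.9 in HF mice and 22018.6 to 33673.5 in LF mice, near the top of the range of the arrays (43 to 35587.5). The mean level of the 11 tested acinar markers lay between -0.03 and 0.12 in HF mice and between -0.15 and 0.05 in LF mice on the log2 scale, each gene set against its mean over all 40 mice. In bulk tissue, fewer cells of a type and less RNA per cell cannot be told apart.

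The weights of the mice gave the setting. At 3 weeks, before the diets parted, the mice later put on HF weighed 10.9 ± 1.54 g and those later put on LF weighed 10.7 ± 1.00 g (SD, n = 12 and 11). The within-cage difference, HF minus LF, was -0.16 g (exact permutation of diet labels within cages, adjusted p = 0.812). A second weight, which the labels tie to weaning although its size is that of an adult, was 30.9 ± 1.59 g in HF mice and 24.8 ± 1.14 g in LF mice. Every HF mouse was heavier than every LF cage-mate in 5 of 5 cages, the within-cage difference was 6.05 g, and the exact permutation p was 4.17e-05, the smallest that 24000 arrangements can give (adjusted p = 0.000208). HF mice were also longer, by 3.79 mm within cages, with no overlap in any of the 5 cages (exact permutation adjusted p = 0.000347, with 2 HF mice of cage 23 unmeasured). The body mass index of the labels was 0.293 ± 0.0121 in HF mice and 0.253 ± 0.00614 in LF mice (n = 10 and 11, exact permutation adjusted p = 0.000347). Fasting glucose was 205 ± 47.1 mg/dl in HF mice and 202 ± 34.5 mg/dl in LF mice, and the HF mean was the higher in 3 of 5 cages (within-cage difference 1.62 mg/dl, exact permutation adjusted p = 0.927). All 5 tests were two-sided and were adjusted together.

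**Figure D1:**
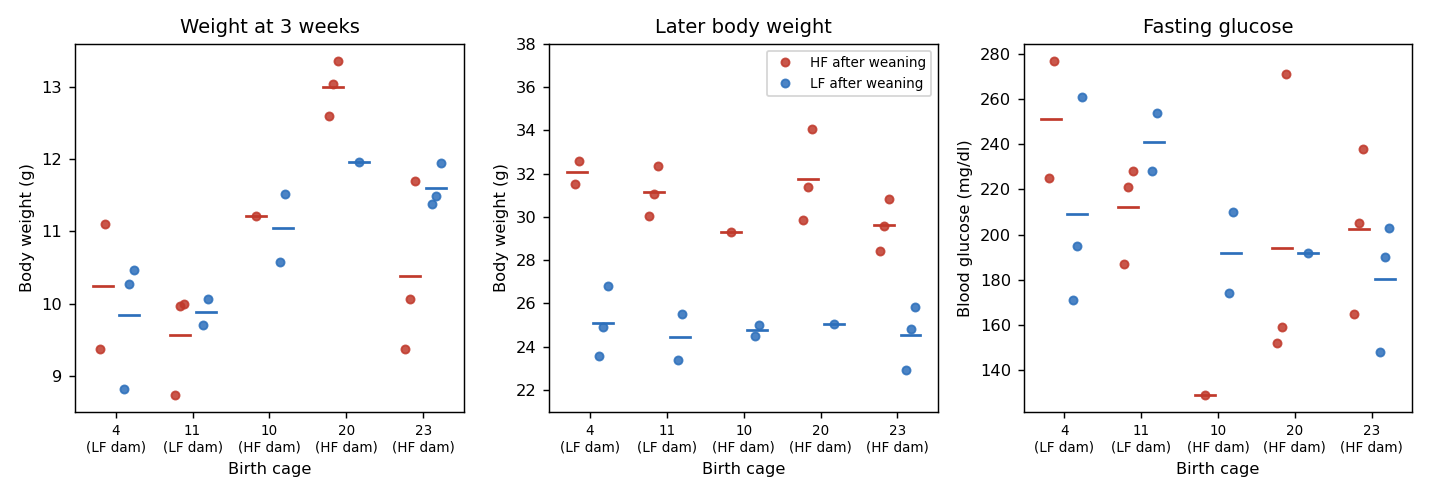
Body weight at 3 weeks, the later body weight (both in g) and fasting blood glucose (mg/dl) of each mouse, by birth cage, with HF mice left of LF mice and a line at the mean. The diets overlap at 3 weeks except in cage 20, every HF mouse is heavier than its LF cage-mates at the later weighing, and glucose overlaps except in cage 10, where the single HF mouse is the lowest.

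Fgf21, a hormone gene of the fasting and stress response, had the largest increase in HF mice and the smallest p of all probes. Its signal was 231.1 and 249.7 in HF mice against 96.8, 130.1 and 130.2 in LF mice of cage 4, and 291.5, 541.1 and 604.0 in HF mice against 130.8 and 182.5 in LF mice of cage 11. In the cages of HF dams it was 360.1 in the HF mouse against 166.5 and 242.9 in LF mice of cage 10, 276.5, 330.7 and 338.4 against 200.7 in cage 20, and 190.8, 237.2 and 250.0 against 83.4, 108.7 and 151.0 in cage 23. Every HF mouse therefore lay above every LF cage-mate in 5 of 5 cages, although the ranges of the diets overlapped when cages were ignored (190.8 to 604.0 in HF and 83.4 to 242.9 in LF). The within-cage difference was 2.10-fold (log2 1.07, SE 0.13, adjusted p = 0.000371). Of the 12246 tested probes, 0.106% had all HF mice above their LF cage-mates in all 5 cages.

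In all, limma called 204 probes (186 genes), 1.67% of the probes tested, at an adjusted p under 0.05. Of these, 114 were higher in HF mice (0.931% of tested probes) and 90 were lower (0.735%). The changes were small, with a median fold of 1.18, and 7 of the 204 exceeded 1.5-fold. The HF mean lay on the same side of the LF mean in 5 of 5 cages for 188 of the 204 and in 4 of 5 for the other 16. Among all tested probes, 6.28% were higher and 8.31% lower in 5 of 5 cages. The calls and this agreement come from the same values, so the agreement describes the called probes and is no separate support. At an unadjusted p under 0.05, 2058 probes passed, where 612.3 would be expected by chance. The count rested on the cages unequally: 7 probes were called when cage 23, the only one with 3 mice of each diet, was left out, 24 when cage 4 was, 53 when cage 10 was, 131 when cage 20 was and 303 when cage 11 was.

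**Figure D2:**
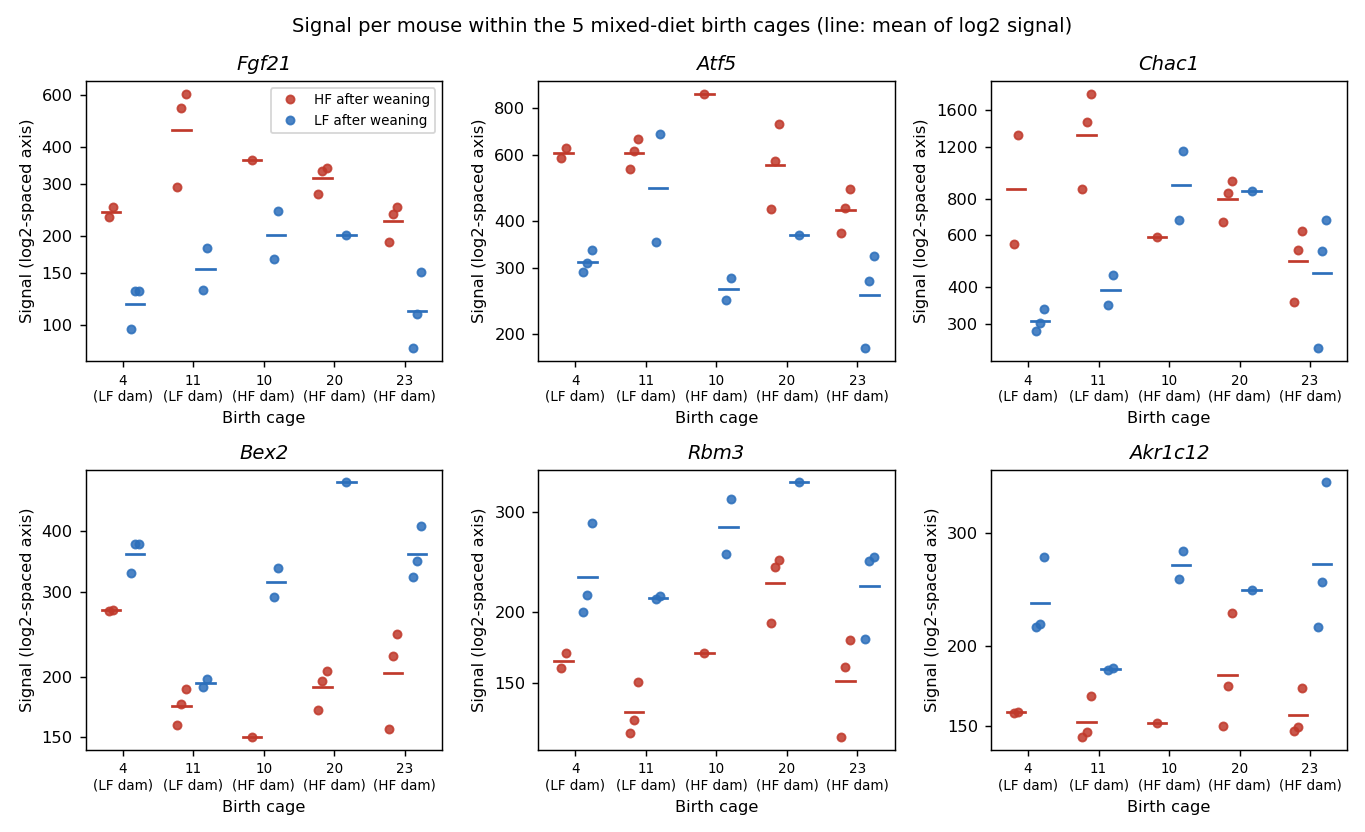
Signal of 6 genes in each mouse (log2-spaced axis), by birth cage, with HF mice left of LF mice and a line at the mean of log2 signal. Fgf21 is higher, and Bex2, Rbm3 and Akr1c12 are lower, in every HF mouse than in every LF cage-mate, while Chac1 is higher in HF mice of cages 4 and 11 and overlaps or is lower in cages 10, 20 and 23.

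The other large increases included transcription factors. Atf5, an ATF-family factor made under the integrated stress response, ran from 372.7 through a median of 584.2 to 872.4 in HF mice, against 183.5, 309.9 and 681.3 in LF mice. Its HF mean was the higher in 5 of 5 cages, as for 6.28% of all tested probes. One LF mouse of cage 11, at 681.3, lay above the 3 HF mice of its cage. The difference was 1.75-fold (log2 0.80, SE 0.14, adjusted p = 0.00423). Ptf1a, the factor that specifies acinar cells and drives their enzyme genes, ran from 332.9 through 476.0 to 698.0 in HF mice, against 210.7, 320.1 and 379.9 in LF mice (1.54-fold, log2 0.62, SE 0.11, adjusted p = 0.00513). The HF mean of Ptf1a was also the higher in 5 of 5 cages, and in cage 23 the diets overlapped. Cbfa2t3, a transcriptional corepressor, was 1.42-fold higher (adjusted p = 0.00358, 1 of its 3 tested probes called), and Egr1, an immediate-early factor, 1.40-fold (adjusted p = 0.0256). The other tested probes of Cbfa2t3 were at log2 -0.04 and 0.02. Egr1 was dim, at 75.9 to 161.7 in HF mice and 68.9 to 103.9 in LF mice.

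Among enzymes, channels and other proteins, Fads1, the delta-5 desaturase of polyunsaturated fatty acid synthesis, ran from 416.6 through 657.3 to 885.8 in HF mice, against 347.0, 437.0 and 663.6 in LF mice (1.39-fold, log2 0.48, SE 0.07, adjusted p = 0.00158). Mat1a, the enzyme that makes S-adenosylmethionine for methylation, was 1.41-fold higher (adjusted p = 0.0342), with higher means in 4 of 5 cages; in cage 11 the HF mice had 642.3, 719.7 and 916.6 against 730.6 and 928.8 in LF mice. Gjb2, the gap junction protein connexin 26, was 1.44-fold higher (adjusted p = 0.00608, 1 of 3 probes called). Chchd10, a mitochondrial protein of the intermembrane space, was also 1.44-fold higher (adjusted p = 0.0319), and Mif4gd, which interacts with the translation machinery, 1.35-fold (adjusted p = 0.0221, 1 of 2 probes called). Llgl2, a cell polarity protein, was 1.31-fold higher, with every HF mouse above every LF cage-mate in 5 of 5 cages (adjusted p = 0.00423). Gfod2 and Fam83f were higher by 1.16-fold and 1.20-fold, at adjusted p of 0.00412 and 0.00403.

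The replication-dependent histone gene H2bc4 was 1.54-fold higher in HF mice (log2 0.62, SE 0.13, adjusted p = 0.0166), on 1 of its 2 tested probes. Its signal ran from 459.2 through 638.0 to 775.5 in HF mice, against 272.1, 376.5 and 665.1 in LF mice. The other tested probe of H2bc4 was at log2 0.0098 (limma adjusted p = 0.893). Histone H2b genes have near-identical copies, so probes may read several of them, and the identity of the gene is uncertain. Of the 9 tested genes named H2bc, a set chosen after their values were seen, 8 were higher in HF mice and 4 were called, with H2bc12, H2bc11 and H2bc14 at log2 differences of 0.24, 0.25 and 0.21. Over all tested features, 1.67% of probes were called and 48.3% of genes were higher. Because probes may read several copies, these calls may not be of separate genes.

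The largest fall was that of Bex2, a small brain-expressed X-linked protein. Its signal ran from 150.1 through 192.3 to 275.5 in HF mice, against 190.6, 336.2 and 504.9 in LF mice, and every HF mouse lay below every LF cage-mate in 5 of 5 cages, which 0.155% of all probes did. The difference was 1.61-fold (log2 -0.69, SE 0.11, adjusted p = 0.00331), and all 3 tested probes were called. Bex2 fell least in cage 11 (log2 -0.16) and most in cage 20 (-1.41), where the 3 HF mice had 170.7, 195.8 and 205.2 and the single LF mouse 504.9.

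Rbm3, an RNA-binding protein induced by cold, was lower in every cage by a similar amount. Its signal was 159.2 and 169.4 in HF mice against 200.2, 214.5 and 287.5 in LF mice of cage 4, and 122.4, 129.0 and 150.3 in HF mice against 210.7 and 213.4 in LF mice of cage 11. In cage 10 it was 169.5 in the HF mouse against 253.4 and 316.5 in LF mice, and in cage 20 191.4, 240.8 and 247.6 in HF mice against 339.0 in the LF mouse. In cage 23 the nearest values were 178.4 in an HF mouse and 179.6 in an LF mouse. The difference was 1.51-fold (log2 -0.60, SE 0.08, adjusted p = 0.000616), and the 5 cages gave log2 differences of -0.49, -0.67, -0.74, -0.59 and -0.56 in the order 4, 11, 10, 20 and 23. Akr1c12, an aldo-keto reductase, was separated in the same way, at 144.4, 154.6 and 224.9 (lowest, median, highest) in HF mice against 183.3, 244.3 and 359.1 in LF mice (1.49-fold, log2 -0.57, SE 0.09, adjusted p = 0.00283).

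The other falls named here were smaller. The sulfotransferase Sult1a1 was 1.42-fold lower (adjusted p = 0.0402, with the diets overlapping in most cages) and the methyltransferase Inmt 1.32-fold lower (adjusted p = 0.00542). Sesn1, a sestrin that restrains growth signalling, was 1.39-fold lower (adjusted p = 0.0336), with its other tested probe at log2 -0.09. Selenop, the plasma selenium carrier, was 1.33-fold lower (adjusted p = 0.0342), with the HF mean the higher in cage 10, at log2 0.10. Its other tested probe was not called and pointed up (log2 0.07, adjusted p = 0.891). Ndufv2, a complex I subunit, was 1.30-fold lower (adjusted p = 0.00331), the mitochondrial carrier Slc25a35 1.32-fold lower (adjusted p = 0.00331) and the hexokinase Hk2 1.30-fold lower (adjusted p = 0.0245). Srsf5, a splicing factor, was 1.32-fold lower, with every HF mouse below every LF cage-mate in 5 of 5 cages (adjusted p = 0.00979), and Gas6, a ligand of the TAM receptor kinases, was 1.30-fold lower (adjusted p = 0.0166). The splicing gene Ik was lower by a small amount in every cage, at 147.6 to 176.4 in HF mice and 179.2 to 210.2 in LF mice, so that the diets did not overlap even across cages (1.18-fold, adjusted p = 0.00513).

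**Figure D3:**
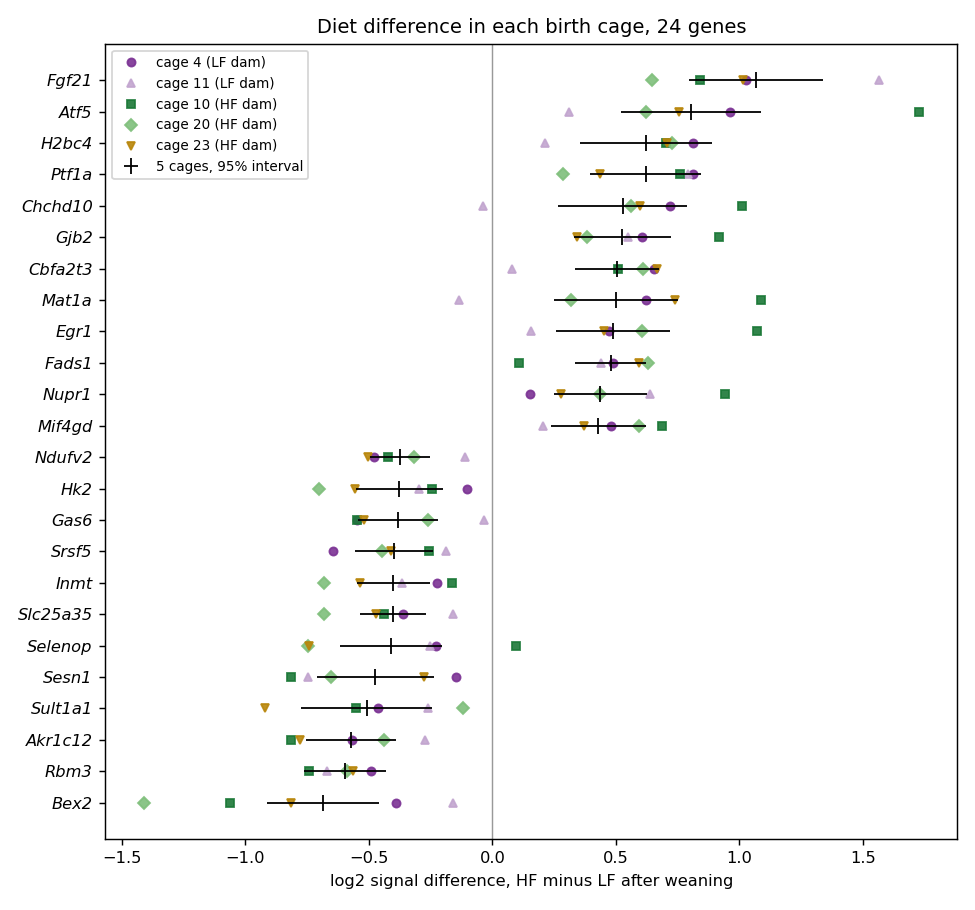
log2 signal difference, HF minus LF after weaning, in each of the 5 birth cages (coloured symbols) for the 12 largest called increases and the 12 largest called falls, with the estimate over the 5 cages and its 95% interval (black). The symbols lie on 1 side of 0 for most genes, and the exceptions are Chchd10 and Mat1a in cage 11 and Selenop in cage 10.

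The integrated stress response had the most called members of the 43 gene lists. Of 17 tested members, 16 were higher in HF mice, 7 were called higher and none lower, and the median log2 difference was 0.24. Over all 8858 tested genes the median was -0.0029 and 48.3% were higher, and 1.67% of tested probes were called. Besides Fgf21 and Atf5, the called members were Atf4, the central factor of the program (1.29-fold, log2 0.37, SE 0.07, adjusted p = 0.00513), Eif4ebp1, an inhibitor of cap-dependent translation (1.29-fold, adjusted p = 0.00358), Nupr1, a stress-induced nuclear protein (1.35-fold, adjusted p = 0.0166), Cebpb (1.24-fold, adjusted p = 0.0291) and the lipoprotein receptor Vldlr (1.18-fold, adjusted p = 0.0342, 1 of 4 probes called). Nupr1 was one of the brightest genes, at 14239.6 to 25204.7 in HF mice and 10976.6 to 18000.7 in LF mice. The asparagine synthetase Asns was at log2 0.33 with an adjusted p = 0.0502 on its representative probe, and 1 of its other probes was called (log2 0.27, adjusted p = 0.0349). The members not called included the apoptosis factor Ddit3 (log2 0.11), its partner Trib3 (0.12) and the cystine transporter Slc7a11 (-0.01). The mean level of the list was higher in every HF mouse than in every LF cage-mate in 5 of 5 cages, at -0.03 to 0.54 in HF mice and -0.45 to 0.05 in LF mice. That level averages the same 17 genes, Fgf21 and Atf5 among them, and the list was chosen with earlier results known. It is therefore no separate support, and how many other lists separate in this way was not counted.

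Of the 17 genes, 16 matched a promoter in the RefSeq table, all but Eif4ebp1. ATF4 and C/EBP factors bind a composite element with the letters TGATGNAA, which was searched on both strands of the 250 bases before each start site. It stood before at least 1 start site of 7 of the 16 genes, against 3.91% of the 27025 genes of the table and 2.88% of the 7186 that were also tested. With start sites counted singly, 7 of 18 promoters of the list had it, against 3.45% of the 32851 of that length. The list was made of genes known for this ATF4 program, so a high share follows in part from that choice. The share does not bear on the response to diet. Of the called members, 3 of 6 had it, namely Fgf21, Nupr1 and, at 1 of its 2 start sites, Vldlr. The called Atf5, Atf4 and Cebpb had none. Slc7a11 had 2 matches and did not move (log2 -0.01, limma adjusted p = 0.943). The 4 sequences below, from GRCm38.p6, were picked among promoters with a match. They belong to the member with the largest increase, to the brightest called member, and to 2 members, Asns and Chac1. Those 2 were not called on their representative probe. Capitals mark the match, which reads TTGCATCA where the element lies on the other strand, and each sequence runs 5′ to 3′ towards its gene and ends at the base before the start site. A match describes these letters and does not show binding.
Fgf21, chr7:45615491-45615740, minus strand: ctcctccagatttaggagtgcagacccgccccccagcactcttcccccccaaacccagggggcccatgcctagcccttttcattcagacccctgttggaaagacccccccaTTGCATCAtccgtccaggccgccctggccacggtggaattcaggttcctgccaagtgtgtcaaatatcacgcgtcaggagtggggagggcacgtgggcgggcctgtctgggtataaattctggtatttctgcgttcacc
Nupr1, chr7:126625471-126625720, minus strand: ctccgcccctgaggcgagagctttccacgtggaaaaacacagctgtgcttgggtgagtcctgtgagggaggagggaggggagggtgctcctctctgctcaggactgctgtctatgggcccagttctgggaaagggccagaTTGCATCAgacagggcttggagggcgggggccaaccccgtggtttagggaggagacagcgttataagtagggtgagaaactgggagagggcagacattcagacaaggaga
Asns, chr6:7693210-7693459, minus strand: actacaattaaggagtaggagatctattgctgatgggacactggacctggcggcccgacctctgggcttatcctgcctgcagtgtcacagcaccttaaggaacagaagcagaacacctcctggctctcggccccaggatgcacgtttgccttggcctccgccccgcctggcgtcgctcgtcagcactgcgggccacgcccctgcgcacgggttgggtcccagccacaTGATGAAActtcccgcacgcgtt
Chac1, chr2:119350992-119351241, plus strand: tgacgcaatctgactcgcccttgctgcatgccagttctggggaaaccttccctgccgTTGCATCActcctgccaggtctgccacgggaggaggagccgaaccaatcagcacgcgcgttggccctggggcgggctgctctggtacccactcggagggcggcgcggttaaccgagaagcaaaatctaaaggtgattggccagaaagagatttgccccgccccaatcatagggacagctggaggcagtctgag
The match ended 132 bases before the start site in Fgf21, 103 in Nupr1, 16 in Asns and 186 in Chac1.

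Lists next to this program in metabolism held 4 further called genes, all higher in HF mice. Over all tested features, 1.67% of probes were called and 48.3% of genes were higher. Of 14 tested genes of serine, methionine and one-carbon metabolism, 12 were higher and 3 were called, the mitochondrial folate enzymes Mthfd2 (1.25-fold, adjusted p = 0.0236) and Shmt2 (1.15-fold, adjusted p = 0.0336) and Mat1a. Of 11 amino acid transporters, 9 were higher with a median log2 of 0.17 and none was called. The nearest were the large neutral transporter Slc7a5 (log2 0.44, adjusted p = 0.0582) and the cationic transporter Slc7a3 (0.24, adjusted p = 0.0581). Of 17 aminoacyl-tRNA synthetases, Gars, which charges glycine, was called (1.21-fold, adjusted p = 0.0166) and 10 were higher. That single call is no result about the synthetases as a list. Of 18 genes of endoplasmic reticulum chaperones and the unfolded protein response, 14 were higher and none was called on its representative probe, at a median log2 of 0.05. A second probe of Creld2, a gene of that list, was called (log2 0.34, adjusted p = 0.0166). Among 11 heat shock and cold-inducible proteins the chaperone Hsph1 was higher (1.31-fold, adjusted p = 0.0221) and Rbm3 lower.

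Called genes of the ribosomal protein and ATP synthase lists were lower in HF mice. Over all tested probes, 0.735% were called lower. Of 53 cytosolic ribosomal proteins, 40 were lower in HF mice, 5 were called lower and none higher, with a median log2 of -0.04. Those called were Rpl12 (1.21-fold, adjusted p = 0.00461, at 3915.3 to 5195.4 in HF mice and 5072.2 to 6478.6 in LF mice), Rpl13a, Rpl22, Rps9 and Rps3, with folds of 1.19 to 1.28. The second tested probes of Rps9 (log2 0.41, adjusted p = 0.478) and Rps3 (log2 0.15, adjusted p = 0.756) pointed up and were not called. A second probe of Rpl31 was called lower (log2 -0.28, adjusted p = 0.0236), while its representative probe was at log2 -0.0043. Of 27 translation factors 15 were higher and none was called on its representative probe, at a median log2 of 0.01. Among them, 1 probe of the elongation factor gene Eef1b2 was called lower (log2 -0.30, adjusted p = 0.00701), and its representative probe was at log2 0.16. Of 15 subunits and regulators of the ATP synthase, 9 were lower and the inhibitor Atpif1 (1.30-fold lower, adjusted p = 0.00701) and Atp5l (1.21-fold lower, adjusted p = 0.0209) were called, each with every HF mouse below every LF cage-mate in 5 of 5 cages. Of 55 respiratory chain genes 25 were higher and 30 lower, at a median log2 of -0.0084, and 1, Ndufv2, was called lower. With 1.67% of all tested probes called, that single call is no result about the list. Of 30 proteasome subunits none was called on its representative probe. A second probe of the subunit Psmb7 was called lower (log2 -0.29, adjusted p = 0.0118), and its representative probe was at log2 -0.27 (adjusted p = 0.0668).

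Genes of the main products of the pancreas were not called. Of 23 digestive enzyme genes none passed, at a median log2 of -0.02, with Prss2 at log2 0.13 and the chymotrypsin gene Ctrc at -0.19. Prss2 and the colipase gene Clps (19901.5 to 34399.2 in HF mice) lay near the top of the array range. Whether signal saturates there was not tested. Of 15 acinar transcription factors and secretory genes, Ptf1a was called higher and the vesicle protein Vamp8 lower (1.15-fold, adjusted p = 0.0445), and Bhlha15, the factor of acinar secretory maturation, was at log2 0.26 (adjusted p = 0.0962). Of the islet hormones, Ins2 was at 4464.1 to 13729.2 in HF mice and 6852.4 to 11738.7 in LF mice (log2 0.04, SE 0.14, adjusted p = 0.906). Gcg (log2 -0.09), Sst (0.01), Iapp (0.02), Ppy (-0.12) and Pyy (-0.31, adjusted p = 0.298) did not pass either, and Ins1 was not tested. The Reg genes, which encode secreted regenerating proteins, spread widely among mice. Reg2 ran from 1075.4 to 28885.4 in HF mice and from 2792.4 to 35587.5 in LF mice, and its log2 difference was -0.99 with an SE of 0.45 (adjusted p = 0.256).

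Lipid and clock genes gave single calls, which are no result about their lists, since 1.67% of all tested probes were called. Of all tested genes, 48.3% were higher. Of 17 cholesterol synthesis genes 14 were higher, and Tmem97, a sterol-regulated membrane protein, was called (1.35-fold, adjusted p = 0.00685, at 1063.9 to 1979.4 in HF mice and 898.9 to 1660.7 in LF mice). Of 17 fatty acid synthesis and desaturation genes Fads1 was called, and of 23 genes of fatty acid oxidation and PPAR-alpha targets none, at a median log2 of -0.02. Of 15 clock genes, Ciart, a repressor of the clock, was called lower on both of its probes (1.19-fold, adjusted p = 0.0425), and Dbp, an output gene with a large daily swing, was at log2 -0.49 with an SE of 0.21.

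**Figure D4:**
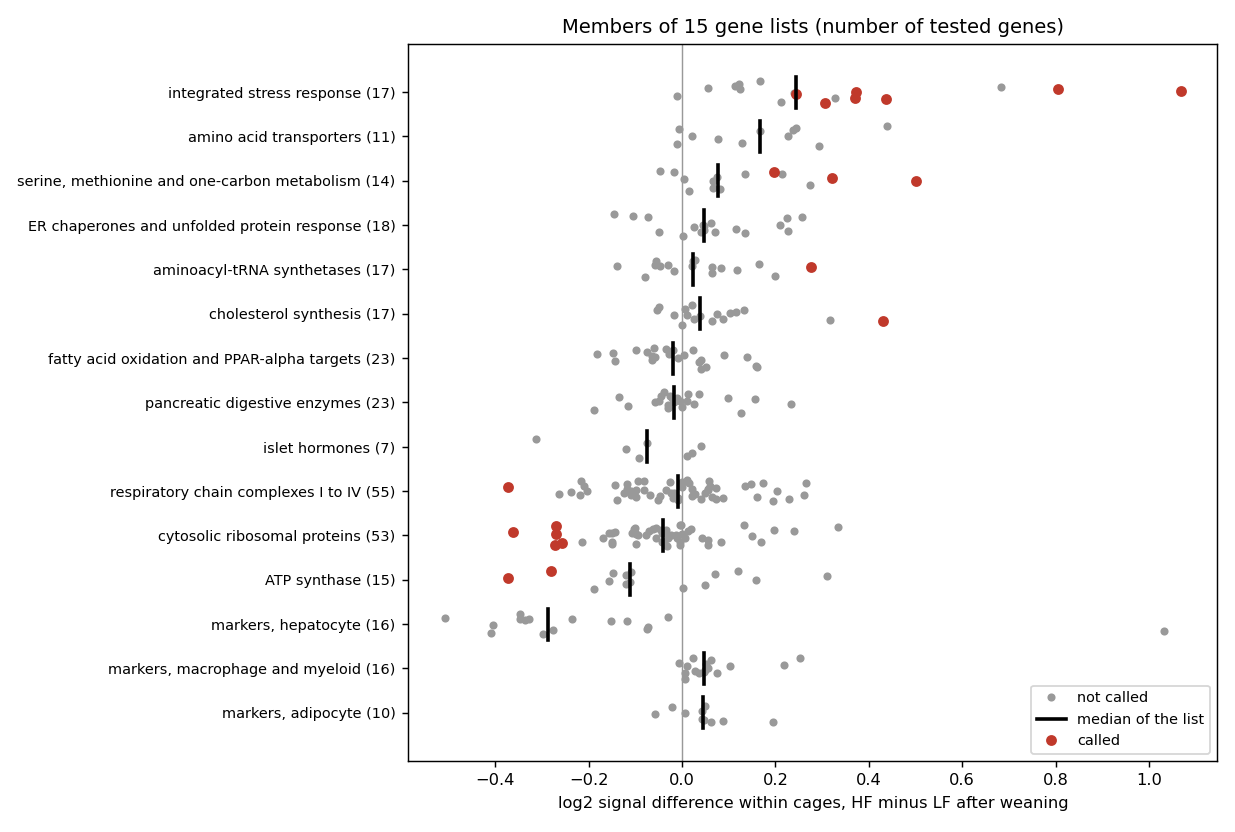
log2 difference within cages, HF minus LF after weaning, of each tested gene of 15 lists (points, red where called) with the median of the list (black bar). The integrated stress response lies furthest to the right, with 16 of 17 members above 0, and the hepatocyte markers furthest to the left.

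Markers of other cell types did not pass in any list with tested members but the acinar one, where Ptf1a did. Of 16 hepatocyte markers 15 were lower in HF mice, at a median log2 of -0.29, and their mean level ran from -0.42 to 0.91 in HF mice and from -0.58 to 0.91 in LF mice. The exception was Mup2, at log2 1.03. In the other 7 cages the same list had a median of 0.40, the opposite side. Of 16 macrophage and myeloid markers 15 were higher, at a median of 0.05, and the level was 1.42 in HF_HF 5 and at most 0.17 in any LF mouse. The same array had the fibroblast level at 0.68 and the MHC class II level at 0.76. Without HF_HF 5, 207 probes were called. Of 10 adipocyte markers 8 were higher, at a median of 0.04. The part of these cells in the called genes was not tested.

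The diet effect was also fitted for each dam diet. In cages of LF dams, 2 probes were called (0.0163%), Fgf21 (2.45-fold, adjusted p = 0.00810) and Chac1. In cages of HF dams, 42 were called (0.343%), 17 higher and 25 lower, and 36 of them were among the 204. Among those were Fgf21 (1.84-fold, adjusted p = 0.0231), Bex2 (log2 -1.02, adjusted p = 1.58e-05) and Slc25a35 (log2 -0.52, adjusted p = 0.00432). The acute-phase transcription factor Stat3 was higher in cages of HF dams (log2 0.45, adjusted p = 0.00432) and at 0.09 in those of LF dams. The test of whether the diet effect differed by dam diet called 0 probes by limma (0%, lowest adjusted p = 0.439), with 488 at an unadjusted p under 0.05. That is fewer than the 612.3 expected by chance. The cages of the dam diets also differed in number and in balance.

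Chac1 encodes a glutathione-degrading enzyme and is induced in the integrated stress response. It was called in cages of LF dams. In cages of LF dams the HF mice had 561.9, 1316.7, 863.1, 1456.9 and 1812.0 and the LF mice 283.5, 302.0, 337.1, 347.3 and 438.9, which did not overlap (log2 1.62, adjusted p = 0.0239). In cages of HF dams the HF mice ran from 356.3 to 916.6 and the LF mice from 248.7 to 1161.5 (log2 -0.09, adjusted p = 0.900). The difference between the dam diets had an adjusted p = 0.439. Bcl6, a transcriptional repressor, had the opposite arrangement, with log2 0.63 in cages of HF dams (adjusted p = 0.0231) and -0.26 in those of LF dams, and the same adjusted p = 0.439 for the difference. In cage 20 its 3 HF mice had 123.6, 123.6 and 131.2 against 59.6 in the LF mouse, and in cage 11 63.3, 78.5 and 79.7 against 80.1 and 112.6 in LF mice. The smallest differences by p also included Bex2 and Tle6.

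Mice of different cages with the same dam diet were then compared with the diet fitted. The cage test called 0 probes by limma (0%), with 671 at an unadjusted p under 0.05 and the smallest adjusted p at Fads1 and the kallikrein Klk1b24 (0.0891 each). By chance, 612.3 would be expected under that unadjusted p. The correlation between cage-mates across all probes was -0.025 in these 23 mice.

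The 17 mice of the other 7 cages were not used to call any of these genes. Diet and cage cannot be told apart there, since each held 1 diet. In them limma called 0 probes (0%), with 912 at an unadjusted p under 0.05 and a lowest adjusted p of 0.0812, which Fgf21, Rbm3, Zfpm1 and C2cd2 shared with others. By chance, 612.3 would be expected under that unadjusted p. Of the 114 probes called higher within cages, 95 (83.3%) were also higher between these cages, against 48.9% of all tested probes. Of the 90 called lower, 82 (91.1%) were also lower, against 51.1%. An unadjusted p under 0.05 with the same sign was reached by 75 of the 204. Over the 204, the median ratio of the between-cage to the within-cage log2 difference was 0.50, so most called changes were smaller in these cages. Fgf21 was at log2 1.07 within the mixed cages and 1.08 between the others, Rbm3 at -0.60 and -0.63, and Atf5 at 0.80 and 0.43. Egr1, Inmt and Atf4 were at -0.02, 0.02 and 0.05 there, with adjusted p of 0.986, 0.992 and 0.973. Zfpm1, a cofactor of GATA factors, was higher in both (log2 0.39 within cages, adjusted p = 0.0166, and 0.49 between the others). The test of the within-cage minus the between-cage difference called 0 probes by limma (0%, lowest adjusted p = 0.922), with 566 at an unadjusted p under 0.05. That is fewer than the 612.3 expected by chance. Over genes, the 2 sets of differences correlated at r = 0.340, a description with genes that are not independent.

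**Figure D5:**
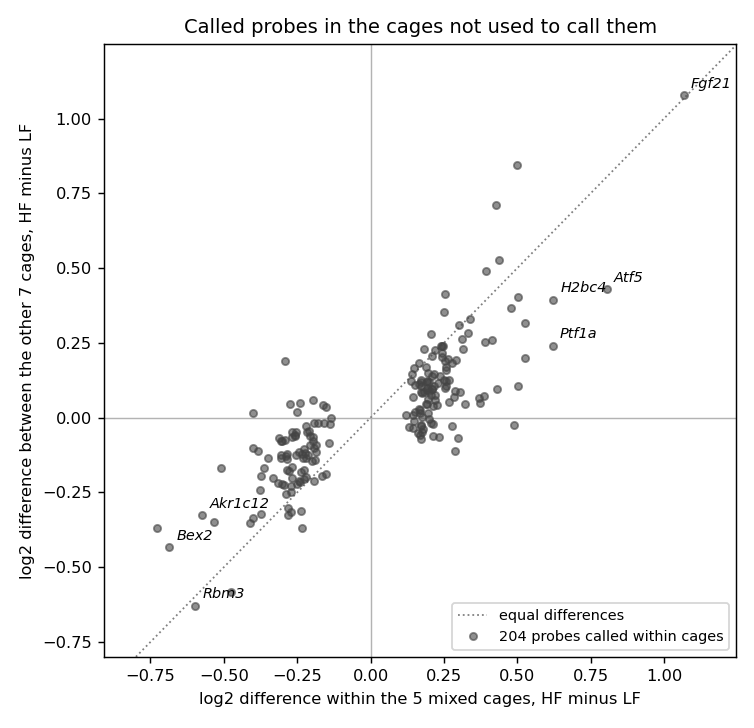
log2 difference HF minus LF of the 204 probes called within the 5 mixed cages (horizontal axis) against the difference between the other 7 cages (vertical axis). Of the 204, 177 lie on the same side of 0 in both, and Fgf21 and Rbm3 lie close to the line of equal differences. The median ratio of the vertical to the horizontal difference is 0.50.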

How the data were processed

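Total RNA of the whole pancreas of each of 40 mice was hybridized to 1 array (Illumina MouseRef-8 v2.0). The deposited values are linear signal intensity, exported with BeadStudio and quantile normalized by the authors over the 40 arrays, with no background subtraction. Their version of BeadStudio, detection p-values and slide positions are not given in the sources used here. Sorted values differed by at most 1.86% between arrays, and no further normalization was applied.

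Values were taken to log2. A probe was tested if its signal exceeded the array median on 20 or more of 40 arrays (12246 of 25697). Probes were named by gene symbol (23978 had 1, 1719 none), and a gene was represented by its tested probe of highest mean. With limma 3.58.1 (R 4.3.3), a model was fitted to the 23 mice with cage as a fixed block and post-weaning diet, variances were moderated along an intensity trend, and two-sided p-values were adjusted by Benjamini-Hochberg and called under 0.05. A joint fit with 1 diet effect per dam diet gave those effects and their difference. The cage test came from the fit with a single diet effect. The other 7 cages were fitted with cage as a random block. Each array was a separate mouse, and p-values measure the spread between mice, taken as independent once birth cage and diet are fitted. Housing after weaning is not in the labels and may follow diet, so the effects of diet and of later housing cannot be told apart. Body measures were tested by exact permutation within cages (Python 3.11.15, numpy 2.4.6, scipy 1.17.1). Figures were drawn with matplotlib 3.10.9.

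The 12 largest called increases, the 12 largest falls and 6 more genes by p were named, with 4 genes by p for each further test and up to 4 members of each of the 43 lists. The members and the lists were chosen with earlier results of these data known, so the direction of a list is not independent of them. Single array statistics, the H2b genes and the genes of a list beyond the rule were named after their values were seen.

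The procedure was tested on simulated data for the comparison within cages, with 200 of 12246 probes moved: 86% of those moved 1.2-fold and 99% of those moved 1.5-fold were recovered, and 13 unmoved probes were called (6.57% of calls). For the effect in cages of HF dams, 61% of those moved 1.2-fold and 93% of those moved 1.5-fold were recovered. Correlation between genes was not simulated, and a moved probe moved by the same amount in every cage compared. Alternatives changed the block, the filter, the scaling, the background, the moderation, the weights and the animals or cages included. Genome positions of probes were not used.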

Additional observations from a re-analysis of the deposited data

Results flagged for a closer look

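The 42 tested genes named for the main comparison, the stress response and the islets, and 5 body measures, were examined in the 4 groups of dam and post-weaning diet for a single mouse far from the rest of its group. There were 188 such groups, of which 9.4 would be flagged by chance at 1 in 20, and 9 were. Of the increases, Atf5 was 681.3 in the LF_LF mouse 9 of cage 11, against 292.7 to 351.7 in the other 4. Mif4gd was 234.1 in the HF_LF mouse 7 of cage 23, against 142.0 to 170.5. Eif4ebp1 was 985.9 in the LF_HF mouse 10 of cage 11, against 842.3 to 878.1. Of the falls, Rbm3 was 287.5 in the LF_LF mouse 6 of cage 4, against 200.2 to 214.5, and Akr1c12 was 224.9 in the HF_HF mouse 7 of cage 20, against 147.6 to 173.0. Sult1a1 was 225.0 in the LF_HF mouse 9 of cage 11, against 125.1 to 143.9, and Slc25a35 was 165.9 in the HF_HF mouse 4 of cage 23, against 122.0 to 135.5. Sesn1 was 447.7 in the HF_LF mouse 7 of cage 23, the lowest, against 714.6 to 789.7, and Ndufv2 was 766.2 in the HF_LF mouse 2 of cage 10, against 622.8 to 655.1.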

How the results depend on the processing

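Of 51 called genes followed through 42 alternatives each, 0 changed direction, 33 stayed called in 36 or more, and Fgf21 and Rbm3 were called in all 42. The number of calls was less steady. Against 204 calls it was 293 with no cage block, 282 with a random block, 650 with array weights, 112 with no filter, and 2 (Fgf21 and Rbm3) with 1 difference per cage. It was 24, 53, 131 and 7 without cages 4, 10, 20 and 23, and 69 to 503 when single mice were left out, the lowest without HF_HF replicate 1, the only HF mouse of cage 10, and the highest without LF_LF replicate 9 of cage 11. From LF dams the 2 calls became 0 with no block, with a random block, with no moderation, with the dam diets fitted separately and without cages 4 or 11, 1 with all 40 mice and without cage 20, 4 with array weights, and 0 to 3 without single mice. From HF dams the 42 became 70 with no trend, 19 with no moderation and with separate fits, 187 with array weights, 23 with no filter, 75 with the stricter filter, 14, 11 and 3 without cages 10, 20 and 23, and 7 to 114 without single mice. The test between dam diets called 1 without cage 23 and 0 to 1 without single mice. The cage test called 2 with no trend. In the other 7 cages 5 were called with no trend, 1 with cyclic loess and 6 with no block.

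Uncalled values near 0 changed sign. Sst became -0.054 with no block, -0.061 with a random block, -0.056 without cage 10 and -0.017 without cage 20, Iapp -0.026, -0.011 and -0.0062 without cages 4, 10 and 23, Ins2 -0.0067 without cage 10 and Gcg 0.051 without cage 23. Without single mice, Sst ran from -0.0561 to 0.0931, Iapp from -0.0294 to 0.0873 and Ins2 from -0.0223 to 0.103. The 3-week weight difference was 0.0097 g with 1 difference per cage and 0.254 g without cage 23, and -0.359 to 0.0216 g without single mice. That of glucose was -5.13, -10.2 and -6.52 mg/dl with 1 difference per cage and without cages 4 and 23, and -6.12 to 10.9 mg/dl without single mice.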
